A study of Mus musculus with 4 samples.

Results

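Upk3a-positive hormone-sensing cells were luminal cells of the wild-type, giredestrant-treated mammary library that carried hormone receptor transcripts together with transcripts of Upk3a. There were 317 of them, which was 30.5% of the 1040 hormone-sensing cells of that library (exact 95% interval 27.7 to 33.4). The library held 3029 kept cells and the whole series 25950. A kept cell had at least 1000 unique molecular identifiers (UMIs, each 1 counted transcript molecule), at least 500 genes and at most 15% mitochondrial UMIs. Per 10000 UMIs, a hormone-sensing cell had at least 10 over Esr1, Prlr, Areg and Foxa1, under 10 over the basal genes Acta2, Myh11, Mylk and Tagln, and under 10 over the secretory genes Wfdc18, Csn3, Elf5 and Kit. A cell with at least 2 raw Upk3a UMIs was Upk3a-positive. These cells were compared with the 649 hormone-sensing cells of the same library that had no Upk3a UMI, the Upk3a-zero cells. The 74 cells with 1 Upk3a UMI belonged to neither group. Upk3a and the 12 gate genes chose the cells, so their values are a description only.

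The study crossed 2 Esr1 genotypes with 2 treatments, and each of the 4 groups is 1 library. The groups are wild type with giredestrant, wild type with vehicle (MCT), Y541S with giredestrant and Y541S with vehicle. All animals were 6 months old, carried pellets of estradiol and progesterone, and were dosed once a day over 4 days, with 30 mg/kg giredestrant by mouth in the treated groups. Y541S is a mutant of the estrogen receptor, and the labels do not state how the allele was made, which cells carry it or how many animals a library holds. Cells were sorted by flow cytometry for the epithelial surface protein EpCAM and sequenced as 10x Genomics gene expression libraries. The source label reads mature luminal cells, while 1067 of the 3029 kept cells of the wild-type giredestrant library passed the basal gate alone. With no replicate library there is no test between groups, and cells of 1 library are not replicates. Every interval below covers counting error only.

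Hormone-sensing cells are the luminal cells of the mammary gland that contain the estrogen receptor. Estradiol makes them produce progesterone receptor and the growth factor amphiregulin (Areg), and under progesterone they release RANKL (Tnfsf11) and Wnt4, which act on neighbouring cells. Giredestrant is an oral compound that blocks the estrogen receptor and promotes its degradation. Upk3a encodes uroplakin 3A, a membrane protein known from the plaques that line the bladder. Of the other genes by which these cells were marked, Sbp encodes spermine binding protein, an androgen-regulated secretory protein of the mouse prostate, Fgb the beta chain of fibrinogen, a clotting protein made mainly by the liver, and Tspan1 a tetraspanin of epithelial membranes.

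Upk3a lies on chromosome 15 from 85017141 to 85022547, on the plus strand of GRCm38. The 250 bases before RefSeq's transcription start are shown for Upk3a, which chose the cells, and for Itih2 and Fgb, 2 genes that were higher in them. The sequences are RefSeq's, on GRCm38.p6, at chr15:85016891-85017140 (plus strand) for Upk3a, chr2:10130684-10130933 (minus strand) for Itih2 and chr3:83049864-83050113 (minus strand) for Fgb. The Itih2 window precedes RefSeq's start but lies inside the gene as the GRCm38 annotation used for positions draws it (chromosome 2, 10094593 to 10131396), since transcripts there start further upstream. Capitals mark matches, on either strand, to letters that known factors prefer.
Upk3a: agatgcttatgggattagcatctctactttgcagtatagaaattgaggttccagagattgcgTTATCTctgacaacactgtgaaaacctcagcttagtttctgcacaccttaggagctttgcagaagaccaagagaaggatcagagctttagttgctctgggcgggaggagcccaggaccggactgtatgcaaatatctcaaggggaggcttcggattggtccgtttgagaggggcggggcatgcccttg
Itih2: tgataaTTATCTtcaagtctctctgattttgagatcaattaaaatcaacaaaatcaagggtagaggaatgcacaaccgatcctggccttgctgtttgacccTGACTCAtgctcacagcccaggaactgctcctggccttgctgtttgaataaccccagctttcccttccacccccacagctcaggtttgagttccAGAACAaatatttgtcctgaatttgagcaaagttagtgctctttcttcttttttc
Fgb: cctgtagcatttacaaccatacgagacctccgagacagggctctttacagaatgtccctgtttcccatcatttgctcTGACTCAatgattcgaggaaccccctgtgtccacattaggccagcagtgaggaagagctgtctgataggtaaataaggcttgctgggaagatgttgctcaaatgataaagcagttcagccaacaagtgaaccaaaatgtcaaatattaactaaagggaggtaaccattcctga

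The letters searched were AGGTCA and GGTCANNNTGACC for the estrogen receptor, AGAACA for steroid receptors such as that of progesterone, TGTTTAC for forkhead factors, AGATAA for GATA factors and TGANTCA for AP-1. Upk3a and Itih2 each held 1 match to the GATA letters, in reverse (TTATCT), which 9.99% of 32851 promoter windows of the same length hold. Itih2 also held 1 match to AGAACA, present in 16.1% of windows, and like Fgb it held 1 match to the AP-1 letters, present in 6.75% of windows. None of the 3 windows held AGGTCA, which 14.0% of windows hold, GGTCANNNTGACC, which 0.0639% hold, or TGTTTAC, which 3.17% hold. No match overlapped another. A match or its absence in 250 bases says nothing of whether a factor binds.

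Most Upk3a UMIs of the library lay in these cells, which follows in part from the rule, since Upk3a chose them. A Upk3a-positive cell held between 2 and 373 Upk3a UMIs, with a median of 17 and quartiles of 4 and 52. Of the 13957 Upk3a UMIs in kept cells of the library, 12355 (88.5%) lay in the 317 cells, and the 31 cells with the most held 42.9% of those. Just inside the threshold, 43 cells had 2 UMIs, and just outside it 74 had 1. A further 39 cells had 3 to 4, 46 had 5 to 9 and 189 had 10 or more, so that cells far above the threshold outnumbered those near it.

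In the other libraries the same rule found few cells. The rule and its library were chosen with earlier results of these data known. Differences in Upk3a between the libraries are therefore a description only. It found 4 of 634 hormone-sensing cells (0.631%, 0.172 to 1.61) in the wild-type vehicle library, 55 of 2455 (2.24%, 1.69 to 2.91) in the Y541S giredestrant library and 19 of 2075 (0.916%, 0.552 to 1.43) in the Y541S vehicle library. Summed over hormone-sensing cells, Upk3a stood at 346 CPM (the gene's UMIs scaled to a common total for every group) under giredestrant and 0.743 CPM under vehicle in the wild type, and at 15.6 CPM under giredestrant and 1.76 CPM under vehicle in Y541S. No cell of the wild-type vehicle library held more than 3 Upk3a UMIs, against a highest value of 43 in the Y541S giredestrant library. Libraries differ in depth, so cells were also thinned to 5000 UMIs. A thinned Upk3a UMI was then found in 23.7% of hormone-sensing cells (21.1 to 26.5) under giredestrant and in 0 of 616 under vehicle in the wild type, where the exact interval reached 0.597%. In Y541S it was found in 3.17% (2.42 to 4.07) under giredestrant and in 0.646% (0.344 to 1.10) under vehicle.

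**Figure D1:**
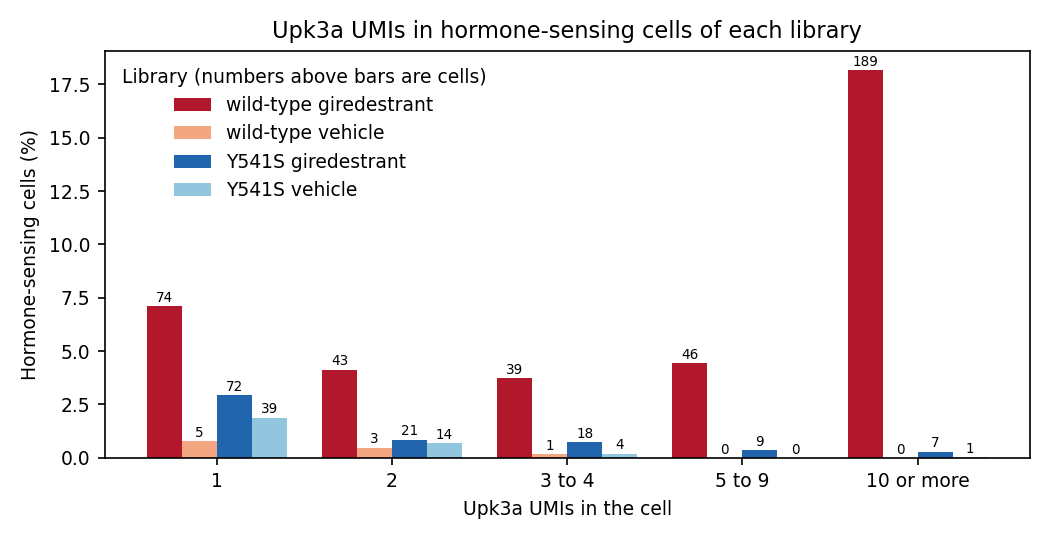
Share of hormone-sensing cells (y axis, percent) with 1, 2, 3 to 4, 5 to 9 and 10 or more Upk3a UMIs (x axis) in each of the 4 libraries, with the number of cells above each bar. Cells with 10 or more numbered 189 under giredestrant and 0 under vehicle in the wild type, and 7 under giredestrant and 1 under vehicle in Y541S.

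Within the wild-type giredestrant library, Upk3a was largely absent from cells that passed the basal or the secretory gate alone. At least 1 Upk3a UMI was present in 37.6% of hormone-sensing cells (median depth 29619 UMIs), in 8 of 1067 basal cells (0.750%, median 17748) and in 6 of 588 secretory cells (1.02%, median 20789). Of 179 cells that passed more than 1 gate (median 55220), 56 (31.3%) held a Upk3a UMI, and 14.0% did when thinned to 5000 UMIs. Free RNA in the droplets can give UMIs in cells that lack a gene. Whether the basal and secretory UMIs came from it was not tested. Thinned to 5000 UMIs, the shares were 23.7% of hormone-sensing, 0.0983% of basal and 0.520% of secretory cells. Outside the hormone-sensing gate, 47 kept cells held 2 or more Upk3a UMIs, and 44 of these passed more than 1 of the gates. Their median doublet score was 0.140, against 0.0369 in Upk3a-positive and 0.0307 in Upk3a-zero cells, and 12 of the 47 were among the 73 highest-scoring barcodes of the library, against 3 of the 317 and 4 of the 649.

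Upk3a-positive cells were deeper than the cells they were compared with. Their median was 36328 UMIs and 6590 genes per cell, against 25473 UMIs and 5680 genes in Upk3a-zero cells, while the mitochondrial share was 1.95% in Upk3a-positive and 1.96% in Upk3a-zero cells. Shares of cells with a UMI are therefore given for thinned cells. For the marker genes and the 26 genes named by rank, ratios that moved by over 1.5 times are given beside their gene. These are ratios among thinned cells or among cells of like depth (159 Upk3a-positive and 243 Upk3a-zero cells). Thinned shares of Upk3a-positive and Upk3a-zero cells keep the groups made from raw Upk3a UMIs, with 315 and 560 cells deep enough. Ratios among thinned cells instead regroup the cells after thinning, as 302 with 1 or more thinned Upk3a UMIs and 640 with none. The group with none thus includes cells that had raw Upk3a UMIs. The library shared 10, 11 and 10 cell barcodes with the wild-type vehicle, Y541S giredestrant and Y541S vehicle libraries, of 3667 barcodes in all.

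Of the 3 marker genes besides Upk3a, Fgb separated the groups and the other 2 hardly did. Fgb stood at 469.9 CPM in Upk3a-positive cells and 202 CPM in Upk3a-zero cells, a log2 ratio of 1.23 (1.17 to 1.29) relative to the median gene. After thinning to 10000 UMIs, a Fgb UMI was found in 61.0% of Upk3a-positive cells and 29.5% of Upk3a-zero cells. Tspan1 stood at 253 CPM in Upk3a-positive cells and 230 CPM in Upk3a-zero cells, with a relative log2 ratio of 0.15 (0.09 to 0.22) and a thinned share of 88.6% in Upk3a-positive against 77.9% in Upk3a-zero cells. Fgb and Tspan1 are therefore widespread in hormone-sensing cells of this library, with Fgb more abundant where Upk3a was present.

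Sbp was carried by a handful of cells. It stood at 124 CPM in Upk3a-positive cells and 122 CPM in Upk3a-zero cells, a relative log2 ratio of 0.03 (−0.06 to 0.12). Of its 6218 UMIs in hormone-sensing cells, 75.4% lay in 20 cells, of which 10 were Upk3a-positive, 7 Upk3a-zero and 3 had 1 Upk3a UMI. One cell alone held 1694 of these UMIs. By cells rather than by UMIs, thinned Sbp was found in 20.6% of Upk3a-positive cells and 9.29% of Upk3a-zero cells. Because single cells weigh so much, the ratio of Sbp was 0.90 where cells with 1 Upk3a UMI counted as positive and −0.60 among cells of like depth. Sbp and Fgb were found together in 14.6% of thinned Upk3a-positive cells and 3.04% of thinned Upk3a-zero cells, and none of Sbp, Fgb and Tspan1 was found in 4.13% of Upk3a-positive and 15.5% of Upk3a-zero cells. The marker set thus describes the Upk3a-positive cells by Upk3a and Fgb, and the name by its rule is kept.

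The gate genes also differed, as a description. Esr1 stood at 484 CPM in Upk3a-positive and 581 CPM in Upk3a-zero cells, and Foxa1, the factor that opens chromatin for the estrogen receptor, at 193 CPM in Upk3a-positive and 167 CPM in Upk3a-zero cells. The prolactin receptor gene Prlr stood at 3122 CPM in Upk3a-positive and 4972 CPM in Upk3a-zero cells. Areg stood at 3198 CPM in Upk3a-positive and 2233 CPM in Upk3a-zero cells. Each of the 4 was found in at least 81.9% of thinned Upk3a-positive cells.

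Outside the rule's own genes, 8777 genes had a mean of at least 10 CPM over the 2 groups. A gene was called higher or lower where its ratio passed 1.5-fold relative to the median gene, with no test. By this measure 259 genes (2.95%) were higher and 264 (3.01%) were lower in Upk3a-positive cells, and 146 passed 2-fold. The 13 genes furthest above and the 13 furthest below were taken by the bound of their interval nearest to no change.

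**Figure D2:**
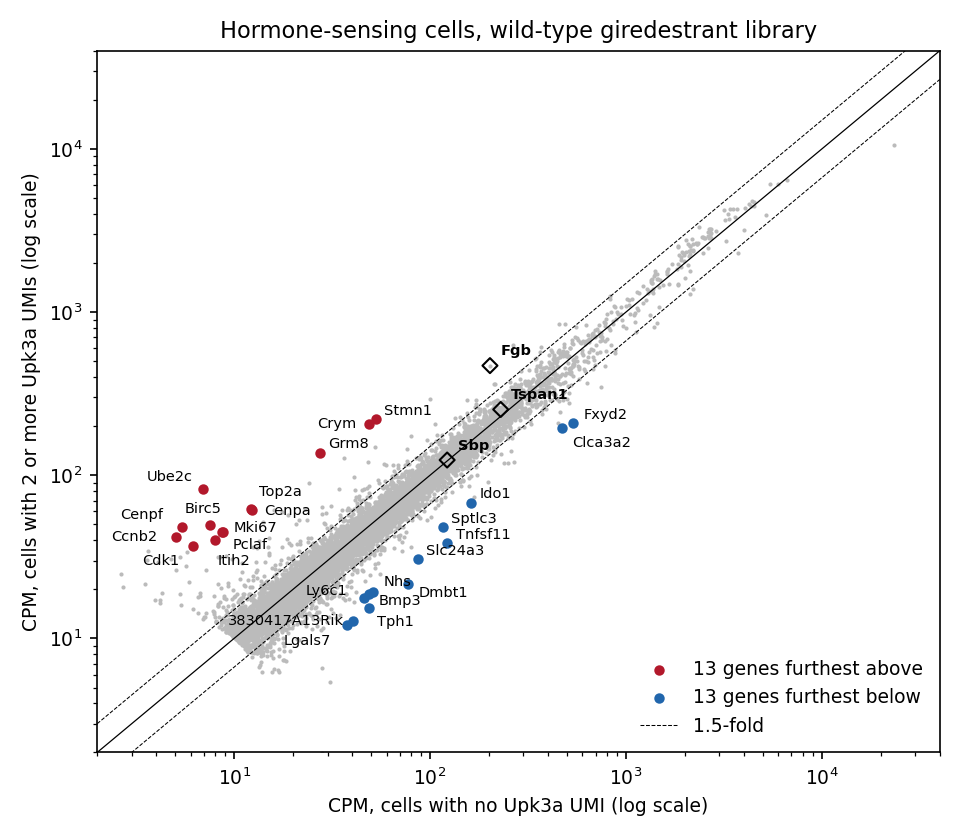
Level of each gene in Upk3a-positive cells (y axis, CPM, log scale) against Upk3a-zero cells (x axis, CPM, log scale) of the wild-type giredestrant library, with the 13 genes furthest above in red, the 13 furthest below in blue and Sbp, Fgb and Tspan1 as diamonds. Ube2c, at 82.0 CPM in Upk3a-positive against 6.95 CPM in Upk3a-zero cells, lies furthest above the diagonal of the named genes, while Sbp and Tspan1 lie within the dashed 1.5-fold lines.

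Genes of cell division formed most of the upper group. Of the G2/M list, 8 of 9 tested genes were higher and none lower (median 2.59), and of the S phase list 8 of 12 (median 0.88). Ube2c, which drives the destruction of mitotic cyclins, stood at 82.0 CPM in Upk3a-positive cells and 6.95 CPM in Upk3a-zero cells, a relative log2 ratio of 3.57 (3.31 to 3.85). Cenpf and Cenpa, proteins of the kinetochore and centromere, stood at 48.2 and 60.8 CPM in Upk3a-positive cells, against 5.43 and 12.3 CPM in Upk3a-zero cells. Ccnb2 and Cdk1, which form the mitotic kinase, stood at 42.0 and 36.6 CPM in Upk3a-positive cells, against 5.05 and 6.13 CPM in Upk3a-zero cells. Birc5, Top2a, Pclaf and Mki67 had relative log2 ratios between 2.36 and 2.73, with Mki67 at 1.502 among thinned cells and Top2a at 1.64 among cells of like depth. Stmn1, which takes microtubules apart, stood at 219.8 CPM in Upk3a-positive and 53.1 CPM in Upk3a-zero cells, a ratio of 2.06 (1.96 to 2.17).

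Dividing cells were more frequent among Upk3a-positive cells. A cell was called cycling with at least 5 UMIs per 10000 over a list of G2/M genes or at least 8 over a list of S phase genes. This held for 61 of 317 Upk3a-positive cells (19.2%, 15.1 to 24.0) and 15 of 649 Upk3a-zero cells (2.31%, 1.30 to 3.78). After thinning to 10000 UMIs the shares were 21.6% (17.2 to 26.5) of Upk3a-positive and 2.86% (1.64 to 4.60) of Upk3a-zero cells. From 0 through 1, 2, 3 to 4, 5 to 9 and 10 or more Upk3a UMIs, the share of cycling cells was 2.31%, 9.46%, 6.98%, 17.9%, 13.04% and 23.8%. After thinning, the shares in the same order were 2.86%, 7.46%, 2.44%, 20.5%, 13.04% and 23.8%. The thinned share in cells with 2 Upk3a UMIs rests on 1 cycling cell of 41, with an interval of 0.0617 to 12.9%. It is too imprecise to tell whether these cells differ from Upk3a-zero cells. The groups from 1 to 5 to 9 UMIs rest on 7, 3, 7 and 6 cycling cells before thinning. The call reads a range of a continuous score, and 24 Upk3a-positive and 12 Upk3a-zero cells lay near the G2/M limit.

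The comparison was repeated without the cycling cells, in 256 Upk3a-positive and 634 Upk3a-zero cells. This alternative was chosen after the data had been seen, and since it removes cells by their cell cycle genes it says nothing of those genes. Of 8717 genes tested, it called 172 higher and 226 lower. The 13 genes highest by the same rule were then Grm8, Dcpp3, Itih2, Crym, Sv2c, 1810010D01Rik, Stmn1, S100a14, Csf3, Phlda1, Gm16685, R3hdml and Fgb. Without cycling cells the relative log2 ratio was 2.61 for Grm8, 2.30 for Itih2, 2.02 for Crym, 1.74 for S100a14, 1.64 for Csf3, 1.499 for Phlda1 and 1.33 for Fgb, and −1.55 for Tnfsf11 and −1.25 for Fxyd2. All other values include the cycling cells unless they say otherwise.

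Crym, mu-crystallin, a thyroid hormone binding protein and ketimine reductase, was 1 of these genes. It stood at 207 CPM in Upk3a-positive cells and 49.0 CPM in Upk3a-zero cells, a relative log2 ratio of 2.09 (1.98 to 2.20), and at 164 CPM in Upk3a-positive and 40.9 CPM in Upk3a-zero cells that were not cycling. A thinned Crym UMI was found in 61.3% of Upk3a-positive and 23.4% of Upk3a-zero cells. In hormone-sensing cells of the wild-type vehicle library Crym stood at 12.2 CPM. Its level followed the number of Upk3a UMIs, at 49.0, 65.7, 109, 114, 123 and 260.4 CPM in cells with 0, 1, 2, 3 to 4, 5 to 9 and 10 or more.

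Itih2 and Fgb encode proteins that the liver secretes into plasma. Itih2, a heavy chain of the inter-alpha-trypsin inhibitor that binds hyaluronan and whose promoter is printed above, stood at 39.9 CPM in Upk3a-positive cells and 8.03 CPM in Upk3a-zero cells, a relative log2 ratio of 2.32 (2.06 to 2.59). No 10 cells held more than 16.7% of its UMIs in the Upk3a-positive group. Thinned Itih2 was found in 30.8% of Upk3a-positive and 6.61% of Upk3a-zero cells. In the wild-type vehicle library it stood at 7.38 CPM in hormone-sensing cells, near the level of Upk3a-zero cells.

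Grm8 and Sv2c are known from neurons, as a metabotropic glutamate receptor and a synaptic vesicle protein. Grm8 stood at 138 CPM in Upk3a-positive and 27.5 CPM in Upk3a-zero cells, a relative log2 ratio of 2.34 (2.20 to 2.48), but 10 cells held 43.0% of its UMIs in the Upk3a-positive group. It was found in 27.6% of thinned Upk3a-positive and 5.89% of thinned Upk3a-zero cells. Its level in hormone-sensing cells of the wild-type vehicle library was 176 CPM. Sv2c stood at 61.4 CPM in Upk3a-positive and 16.01 CPM in Upk3a-zero cells, a ratio of 1.95. S100a14, a calcium-binding epithelial protein, stood at 127 CPM in Upk3a-positive and 36.6 CPM in Upk3a-zero cells, and Phlda1 at 149 CPM in Upk3a-positive and 52.4 CPM in Upk3a-zero cells. The cytokine gene Csf3 (G-CSF) stood at 41.5 CPM in Upk3a-positive and 15.1 CPM in Upk3a-zero cells.

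Tnfsf11, the RANKL gene, was among the 13 genes furthest below. Tnfsf11 stood at 38.3 CPM in Upk3a-positive cells and 122 CPM in Upk3a-zero cells, a relative log2 ratio of −1.66 (−1.80 to −1.53), and a thinned UMI was found in 15.2% of Upk3a-positive and 32.9% of Upk3a-zero cells. Hormone-sensing cells of the wild-type vehicle library had 115 CPM, near the Upk3a-zero cells. Among cells of like depth its ratio was −2.57. From 0 through 10 or more Upk3a UMIs its level was 122, 91.0, 42.0, 63.3, 55.6 and 28.8 CPM. Tph1, the rate-limiting enzyme of serotonin synthesis outside the brain, stood at 15.4 CPM in Upk3a-positive and 48.8 CPM in Upk3a-zero cells (−1.65, −1.87 to −1.44), with a ratio of −0.93 among cells of like depth. Ido1, which degrades tryptophan, stood at 68.0 CPM in Upk3a-positive and 162 CPM in Upk3a-zero cells (−1.24, −1.34 to −1.13), with a ratio of −2.68 among cells of like depth.

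Fxyd2, the gamma subunit of the sodium pump, stood at 209 CPM in Upk3a-positive cells and 538 CPM in Upk3a-zero cells, a relative log2 ratio of −1.35 (−1.41 to −1.29), against 7.91 CPM in hormone-sensing cells of the wild-type vehicle library. Slc24a3, a sodium, calcium and potassium exchanger, stood at 30.5 CPM in Upk3a-positive and 86.5 CPM in Upk3a-zero cells (−1.49). Clca3a2, of the calcium-activated chloride channel regulator family, stood at 195 CPM in Upk3a-positive and 470.4 CPM in Upk3a-zero cells (−1.26). Bmp3, Ly6c1, Nhs, Sptlc3, Lgals7 and 3830417A13Rik made up the rest of the 13, with ratios between −1.64 and −1.25, together with Dmbt1. Among cells of like depth the ratio of Nhs was −2.46, and among thinned cells that of Lgals7 was −3.01. Dmbt1, a glycoprotein of mucosal defence, stood at 21.5 CPM in Upk3a-positive and 77.1 CPM in Upk3a-zero cells (−1.83). Its ratio was −0.88 among thinned cells, and 10 cells held 79.2% of its UMIs in the Upk3a-positive group.

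**Figure D3:**
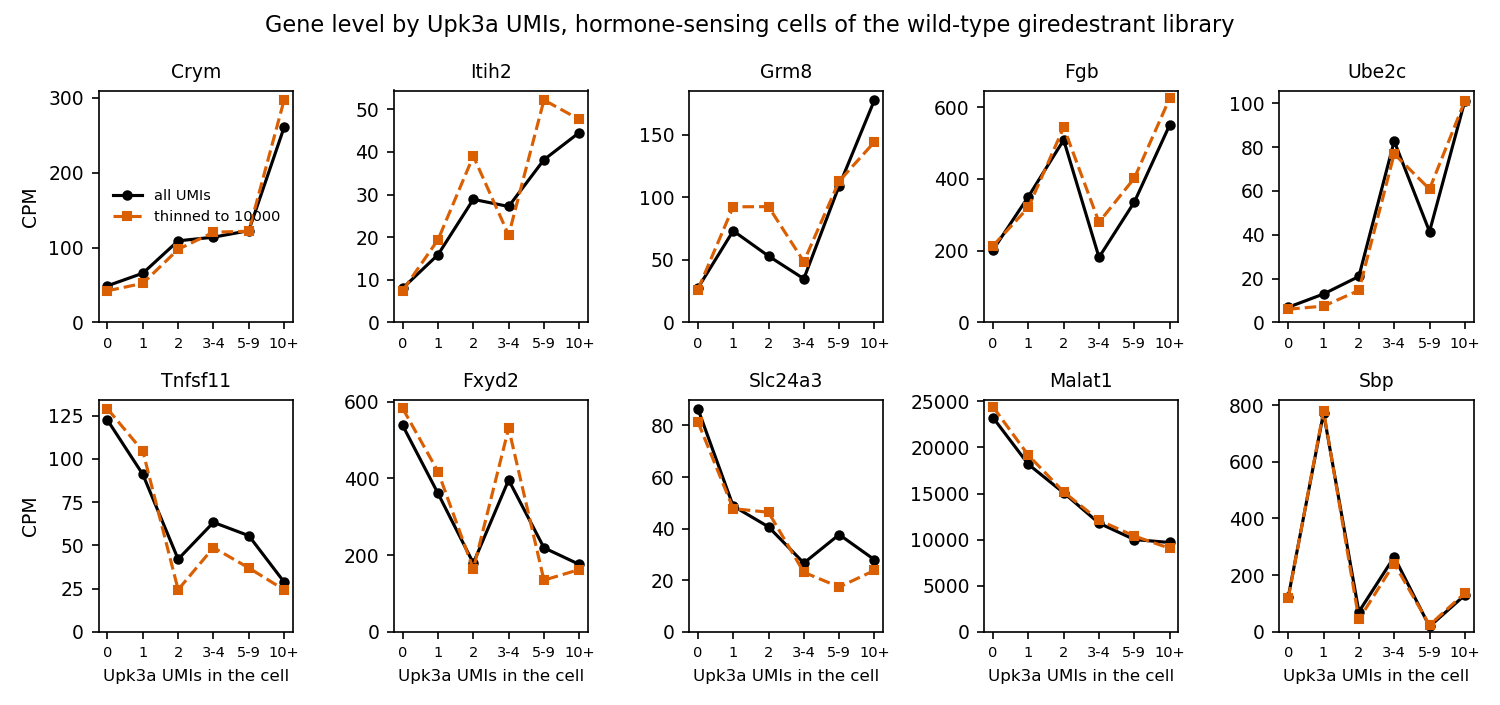
Level of 10 genes (y axes, CPM) in hormone-sensing cells of the wild-type giredestrant library grouped by their Upk3a UMIs (x axes), from all UMIs (black) and after thinning each cell to 10000 UMIs (orange). Crym stood at 49.0 CPM in cells with none and 260.4 CPM in cells with 10 or more, while Sbp, at 773 CPM in cells with 1 and 18.9 CPM in cells with 5 to 9, showed no order.

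Genes that separate giredestrant from vehicle in the wild type did not all go with Upk3a. This list was chosen on these libraries, so its direction between treatments is not a result here. Of its 7 genes tested, 2 were higher, Fgb and Ndst4, and 1 was lower, Fxyd2, with a median of 0.03. Ndst4, an enzyme of heparan sulfate synthesis, stood at 73.5 CPM in Upk3a-positive and 42.1 CPM in Upk3a-zero cells (0.82, 0.68 to 0.95), against 1.17 CPM in hormone-sensing cells of the wild-type vehicle library. Ror2, a Wnt5a receptor, stood at 194 CPM in Upk3a-positive and 131 CPM in Upk3a-zero cells (0.58), and Kcnh1, a voltage-gated potassium channel, stood at 251 CPM in Upk3a-positive and 373 CPM in Upk3a-zero cells (−0.56), while Ror2 had 4.73 CPM and Kcnh1 5.95 CPM in the wild-type vehicle library.

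Of the list of uroplakin and urothelial genes, none of 5 tested was called. Upk2, the only other uroplakin tested, stood at 42.1 CPM in Upk3a-positive and 60.0 CPM in Upk3a-zero cells (−0.50, −0.64 to −0.35). Gata3, a factor of luminal and urothelial cells, stood at 289.5 CPM in Upk3a-positive and 419 CPM in Upk3a-zero cells (−0.52). Of 3 tested fibrinogen and hepatic genes, Fgb was called, and Fgg, the gamma chain, stood at 434 CPM in Upk3a-positive and 370.1 CPM in Upk3a-zero cells (0.24). None of 9 tested prostate secretory and androgen response genes was called (median −0.15).

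Among the genes of hormone action, 3 of 14 tested estrogen response genes were higher and none was lower, with a median of 0.10. Ccnd1, cyclin D1, stood at 205 CPM in Upk3a-positive and 107 CPM in Upk3a-zero cells (0.96, 0.88 to 1.04), and Stc2, stanniocalcin 2, at 115 CPM in Upk3a-positive and 65.0 CPM in Upk3a-zero cells (0.83). Fhl2 was the other (0.75), while the progesterone receptor gene Pgr stood at 98.6 CPM in Upk3a-positive and 88.4 CPM in Upk3a-zero cells (0.17). Of 8 tested progesterone response and paracrine genes, none was higher and 2 were lower, Tnfsf11 and Tsc22d3, with a median of −0.39. Among cells of like depth 5 of the 8 were lower (median −0.64), and among thinned cells 4 were (median −0.55). Wnt4 stood at 326 CPM in Upk3a-positive and 485.5 CPM in Upk3a-zero cells (−0.56), and Calca, which encodes calcitonin, at 1476 CPM in Upk3a-positive and 1848 CPM in Upk3a-zero cells (−0.31). Of 7 tested genes of the EGF family and its receptors, 1 was lower, Nrg4, at 139.9 CPM in Upk3a-positive and 260.2 CPM in Upk3a-zero cells (−0.88).

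Few genes of the epithelial identity lists passed 1.5-fold. None of 12 tested luminal keratin and adhesion genes was called (median 0.09), and Krt18 stood at 4743 CPM in Upk3a-positive and 4505 CPM in Upk3a-zero cells. Of 8 tested hormone-sensing markers outside the gate, Cited1, a transcriptional cofactor of these cells, was higher, at 1257 CPM in Upk3a-positive and 826 CPM in Upk3a-zero cells (0.62, 0.59 to 0.65). Ly6a (Sca-1) was lower, at 291 CPM in Upk3a-positive and 476 CPM in Upk3a-zero cells (−0.70, −0.75 to −0.65). Ehf, an epithelial ETS factor, was with Cited1 the other of 14 tested luminal factors that was higher, at 53.4 CPM in Upk3a-positive and 23.6 CPM in Upk3a-zero cells (1.19).

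Of the ribosomal and oxidative phosphorylation lists no gene passed 1.5-fold. All 14 ribosomal protein genes lay above the median gene, with a median of 0.22 and none called, and 13 of 14 nuclear genes of oxidative phosphorylation did so too (median 0.22, none called). Of 5 tested nuclear long noncoding RNAs, 2 were lower and all 5 lay below the median gene (median −0.32). Malat1 stood at 10553 CPM in Upk3a-positive and 23237 CPM in Upk3a-zero cells (−1.13, −1.13 to −1.12). From 0 through 10 or more Upk3a UMIs it stood at 23237, 18176, 15077, 11791, 10012 and 9693 CPM. Of 14 immediate early and heat shock genes, 12 lay below the median gene and 1, Fos, was called lower, at 1384 CPM in Upk3a-positive and 2191 CPM in Upk3a-zero cells (−0.65). These genes and Malat1 vary with dissociation and with the nuclear share of RNA, and the part of either in the other differences was not tested.

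Of 10 tested interferon response genes, 3 were higher and none lower, with a median of 0.50. Among thinned cells 6 of 11 tested were higher (median 0.68), and among cells of like depth 3 of 9 were (median 0.44). Oasl2 stood at 57.4 CPM in Upk3a-positive and 34.9 CPM in Upk3a-zero cells (0.73), and the other two, Irf7 and Ifit1, had ratios of 0.72 and 0.71. Of 6 tested NF-kB and acute phase genes, Cxcl1, a neutrophil attractant, was higher, at 35.6 CPM in Upk3a-positive and 13.1 CPM in Upk3a-zero cells (1.45). Lcn2 and Lrg1 were lower, at 33.1 and 17.4 CPM in Upk3a-positive cells, against 55.4 and 38.6 CPM in Upk3a-zero cells. None of 12 tested unfolded protein response genes was called (median 0.16). Of 12 tested ion channel and transporter genes, 3 were lower, Fxyd2, the chloride cotransporter gene Slc12a2 (1287 CPM in Upk3a-positive and 2128 CPM in Upk3a-zero cells) and Scnn1b. Of 3 tested genes of mucins and mucosal defence, 2 were lower, Muc16 (5.44 CPM in Upk3a-positive and 30.9 CPM in Upk3a-zero cells) and Dmbt1. With no filter beyond 20 UMIs, 9 genes of that list were tested, 1 was higher and 4 were lower, and its median was −0.28 in place of −1.83.

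**Figure D4:**
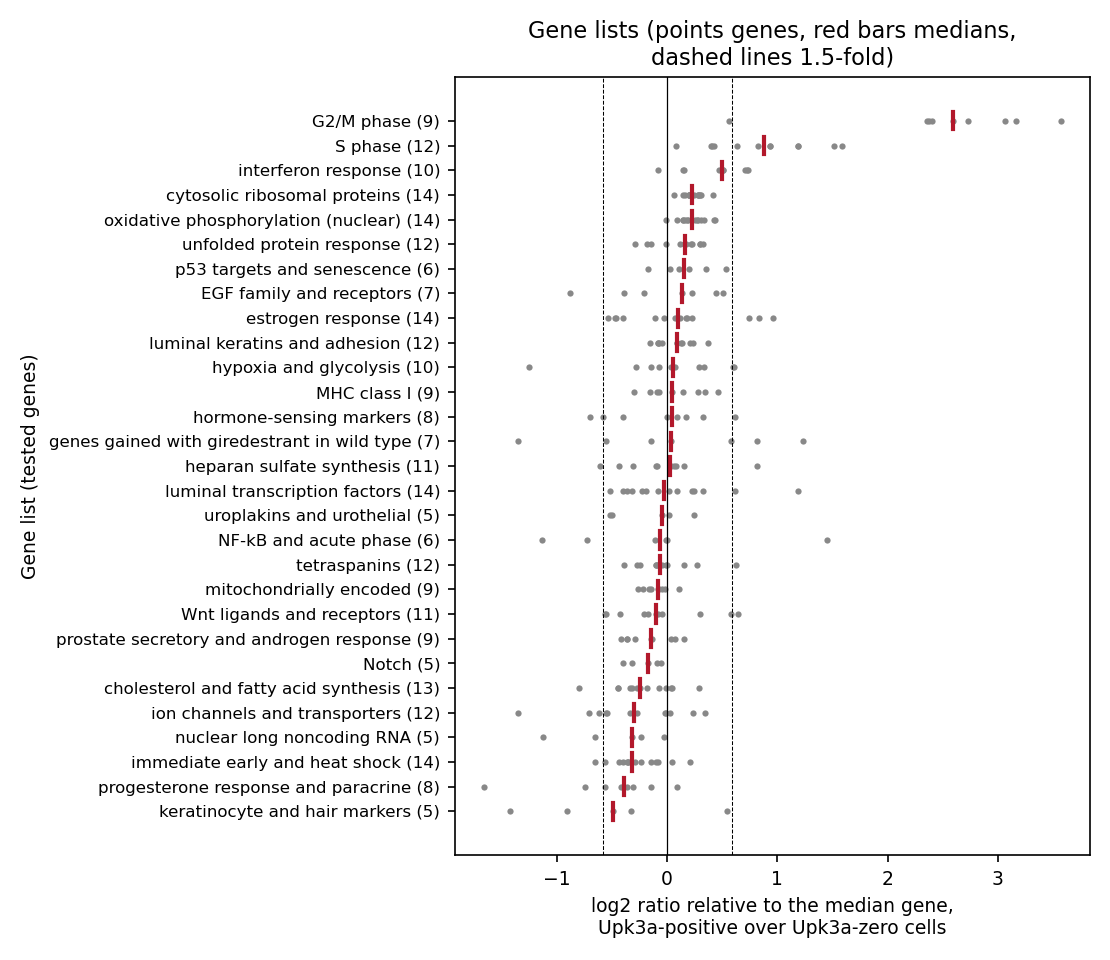
Log2 ratio of Upk3a-positive over Upk3a-zero cells relative to the median gene (x axis) for the tested genes of each list with 5 or more tested (y axis, number tested in brackets), with points for genes, red bars for medians and dashed lines at 1.5-fold. The G2/M list, with a median of 2.59, and the S phase list, with 0.88, lie furthest to the right.

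Markers of other cell types were present at differing levels. Of 11 basal markers, Krt14 and Krt17 were tested, at 6.59 and 6.39 CPM in Upk3a-positive cells, against 28.0 and 16.7 CPM in Upk3a-zero cells, and the list summed to 31.1 CPM in Upk3a-positive and 74.6 CPM in Upk3a-zero cells. Secretory luminal markers summed to 334 CPM in Upk3a-positive and 268 CPM in Upk3a-zero cells, with 1 of 3 tested higher, Cd14. Keratinocyte and hair markers summed to 100.03 CPM in Upk3a-positive and 129.96 CPM in Upk3a-zero cells, with 2 of 5 tested lower and a median of −0.49, or −1.09 among thinned cells. Fibroblast markers summed to 16.04 CPM in Upk3a-positive and 40.8 CPM in Upk3a-zero cells, and macrophage and dendritic markers to 10.8 CPM in Upk3a-positive and 8.25 CPM in Upk3a-zero cells. Endothelial markers summed to 4.76 CPM in Upk3a-positive and 3.75 CPM in Upk3a-zero cells, and lymphocyte markers to 1.36 CPM in Upk3a-positive and 1.19 CPM in Upk3a-zero cells. The part of these in the other differences was not tested.

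Upk3a-positive cells lay together when hormone-sensing cells were clustered with Upk3a left out. By share of Upk3a-positive cells, 3 of the 11 clusters stood highest, followed by cluster 5 with 18 of 52 (34.6%). Cluster 8, led by Csf3, S100a14 and Crym, had 115 of 152 cells positive (75.7%, 68.0 to 82.2), the cycling cluster 3 had 44 of 59 (74.6%, 61.6 to 85.0), and cluster 1, led by Grm8, had 85 of 134 (63.4%, 54.7 to 71.6). Of all Upk3a-positive cells, cluster 8 held 36.3%, cluster 3 held 13.9% and cluster 1 held 26.8%. In cluster 6, led by Lcn2, Tph1 and Tnfsf11, 6.93% of 101 cells were positive, and in cluster 9, led by Cdh13, Muc16 and Clca3a2 and with Sbp among its leading genes, 6.92% of 130. Among the 19 nearest neighbours of a cell, 65.8% on average were Upk3a-positive around a Upk3a-positive cell and 16.9% around a Upk3a-zero cell, with 30.5% over all. Median depth was 31460 UMIs in cluster 8, 44162 in cluster 3 and 43550 in cluster 1. It was 31203 in cluster 6, 23672 in cluster 9 and 9438 in cluster 0, where 4.55% were positive. The part of depth in these shares was not tested. The clusters use the same cells as the gene comparison and give no separate evidence.

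**Figure D5:**
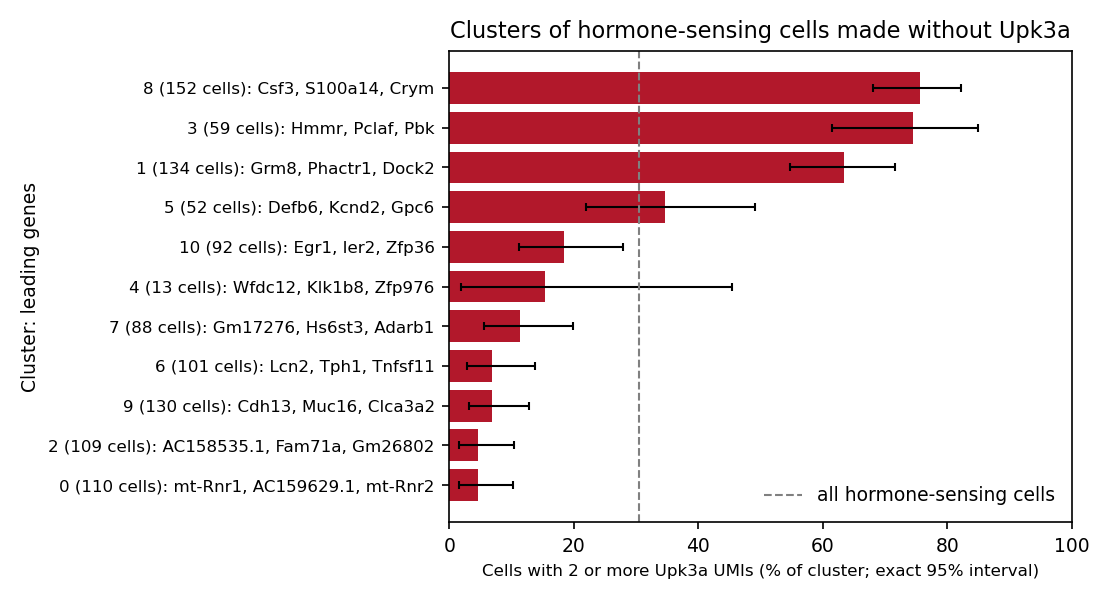
Share of Upk3a-positive cells (x axis, percent of the cluster, bars with exact 95% intervals) in the 11 clusters of hormone-sensing cells made without Upk3a (y axis, with cell number and 3 leading genes), with the share over all hormone-sensing cells as a dashed line at 30.5%. Clusters 8, 3 and 1 stand at 75.7%, 74.6% and 63.4%.

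The Y541S giredestrant library gave the one other set large enough to compare, with 55 Upk3a-positive and 2328 Upk3a-zero cells. Its sum of 921651 UMIs over the Upk3a-positive cells makes low genes imprecise, and of 8602 tested genes 728 (8.46%) were called higher and 999 (11.6%) lower. Median depth was 14794 UMIs in Upk3a-positive and 8345 UMIs in Upk3a-zero cells of that library. Of the 13 genes furthest above in the wild type, 13 lay above the median gene here and 11 passed 1.5-fold. Crym stood at 104 CPM (96 UMIs) in Upk3a-positive and 22.8 CPM in Upk3a-zero cells, a ratio of 2.17 (1.84 to 2.49), and Itih2 at 59.7 CPM (55 UMIs) in Upk3a-positive and 21.6 CPM in Upk3a-zero cells, a ratio of 1.45 (1.02 to 1.85). Grm8, at 61.8 CPM in Upk3a-positive and 50.9 CPM in Upk3a-zero cells, and Stmn1, at 193 CPM in Upk3a-positive and 135 CPM in Upk3a-zero cells, did not pass 1.5-fold. Fgb stood at 18.4 CPM in Upk3a-positive and 2.67 CPM in Upk3a-zero cells, from 17 UMIs in the Upk3a-positive cells.

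Cycling cells made up 11 of the 55 Upk3a-positive (20%, 10.4 to 33.0) and 103 of the 2328 Upk3a-zero cells (4.42%, 3.63 to 5.34) of the Y541S giredestrant library. Of the 13 genes furthest below in the wild type, 12 had a UMI in its Upk3a-positive cells, 8 of these lay below the median gene and 7 passed 1.5-fold. Tnfsf11 stood at 77.0 CPM in Upk3a-positive and 186 CPM in Upk3a-zero cells (−1.29, −1.65 to −0.95) and Fxyd2 at 56.4 CPM in Upk3a-positive and 106 CPM in Upk3a-zero cells (−0.92). Slc24a3, Nhs, Clca3a2 and Ido1 lay on the other side, with Clca3a2 at 114 CPM in Upk3a-positive and 59.3 CPM in Upk3a-zero cells (0.92). Without cycling cells, only genes with a UMI in its Upk3a-positive cells were counted. Of these, 9 of 11 of the genes highest in the wild type and 9 of 12 of those lowest kept their side there. Phlda1 (−0.60) and Gm16685 lay on the other side, as did Slc24a3 (0.42), Sptlc3 (0.05) and Clca3a2 (1.39) of the lowest. Left out for want of a UMI were Csf3, Dmbt1 and Dcpp3. Csf3 stood at 0 CPM in Upk3a-positive and 37.8 CPM in Upk3a-zero cells, opposite to its direction in the wild type. Dmbt1 stood at 1.58 CPM in Upk3a-zero cells, and Dcpp3 was absent from both groups. Malat1 stood at 20316 CPM in Upk3a-positive and 40742 CPM in Upk3a-zero cells of this library. Basal markers summed to 284 CPM in Upk3a-positive and 1239 CPM in Upk3a-zero cells of this library, with 3 of 4 tested lower, and 6 of 12 luminal keratin and adhesion genes were higher. Of 14 immediate early and heat shock genes, 7 were lower. The part of basal RNA, depth or dissociation in these values was not tested. The difference between the genotypes in any of these ratios was not tested.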

How the data were processed

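Single-cell RNA-seq libraries of 4 groups, 1 library each, were analysed. Each deposited file of values gives, as whole UMI counts, the molecules of a gene seen with a barcode, made with Cell Ranger 6.0.1 per the file headers, and the submitters' processing notes name GRCm38. Barcodes, gene identifiers and symbols come from the other deposited files, which are text. Of 52636 features, 52489 were in the GRCm38 annotation used for positions. The annotation release the authors used and their treatment of intronic reads are not given in the sources used here. Library totals ranged from 70781982 to 132660456 UMIs.

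From these counts, UMIs were summed over the cells of a group and expressed as CPM. A log2 ratio is given relative to the median of tested genes, which lay at −0.01. Genes were tested at a mean of 10 CPM or more and 20 UMIs over both groups, without the gate genes and Upk3a. Intervals are exact: Poisson for levels, conditional binomial for ratios and Clopper-Pearson for shares, at 95%. The comparison step was checked on simulated sums with counting error only, which leaves out variation between cells. Thinning drew 10000 UMIs per cell (5000 between libraries and classes) and left out shallower cells. Thinned shares of Upk3a-positive and Upk3a-zero cells kept the groups by raw Upk3a UMIs. Ratios, list medians and counts of called genes among thinned cells compared cells with 1 or more thinned Upk3a UMIs with cells that had none. No doublets were removed in the main comparison: Scrublet's automatic call marked 17 of 3029 cells (0.561%), and an alternative removed the 73 highest scores. Clusters were made with Scanpy 1.11.5. TMM scaling in edgeR 4.0.16 was an alternative.

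The cells, the rule and the 44 gene lists were chosen with earlier results of these data known. Named genes are the marker genes, the 13 highest and 13 lowest by interval bound among genes with a mean of 20 CPM or more (without mt- and gate genes), and up to 4 members of each list. Genes without a symbol of known function (Gm, Rik) are named only.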

Additional observations from a re-analysis of the deposited data

How the results depend on the processing

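With other thresholds for Upk3a, the share of hormone-sensing cells was 37.6% at 1 or more UMIs and 24.1% at 4 or more, and it lay between 30.2% and 32.1% in the other 5 alternatives. The 259 genes called higher (2.95% of 8777 tested) became 440 (5.03% of 8748) when each cell weighed the same. With no filter beyond 20 UMIs they became 1128 (7.55% of 14932). Without cycling cells, chosen after the data were seen, 172 of 8717 tested genes were called higher. The 264 called lower became 437 among thinned cells, 415 among 159 Upk3a-positive and 243 Upk3a-zero cells of like depth, 513 when each cell weighed the same and 1356 with no filter. Fewer UMIs or fewer cells carry more counting error, and the cause of each shift was not tested. Of 33 lists with 3 or more tested genes, 3 had a median past 1.5-fold (G2/M, S phase, mucins and mucosal defence). Among thinned cells and when each cell weighed the same 5 did, with interferon response and keratinocyte and hair markers added. Among cells of like depth 4 did, with progesterone response and paracrine genes added. With 1 or more Upk3a UMIs the list of marker genes was added, and with 4 or more interferon response was. With no filter 2 did, and the median of mucins and mucosal defence was −0.28 with 9 genes tested, so that its call was lost. Without cycling cells the median of the S phase list was 0.13. All 26 named genes kept their direction and stayed past 1.5-fold in the 12 alternatives. They were chosen as the extremes of the main comparison on the same cells, so this gives no separate evidence. TMM scaling, no median shift and no filter move every ratio by the same small amount. Removing cycling cells says nothing of the cell cycle genes among the 26. Sbp, within 1.5-fold in the main comparison, was past it in opposite directions, at 0.90 with a threshold of 1 UMI and −0.60 among cells of like depth. The ratio of Fgb ranged from 1.08 to 1.72, that of Crym from 1.92 to 2.40, that of Tnfsf11 from −2.57 to −1.38, that of Ido1 from −2.68 to −0.83, that of Dmbt1 from −2.19 to −0.88, that of Nhs from −2.46 to −1.23, that of Tph1 from −1.71 to −0.93 and that of Lgals7 from −3.01 to −0.83. Besides the 26, Sbp, Fgb and Tspan1 were followed by ratio in every alternative. The genes highest and lowest without cycling cells were also followed among cells of like depth, where only Gm16685 fell within 1.5-fold. Other genes were followed only as counts or within list medians.

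No paired analysis was possible because each group is 1 library and the comparison lies within 1 library. For the same reason no replicate was left out. No gene comparison was made for the 4 and 19 Upk3a-positive cells of the vehicle libraries, since fewer than 50 cells were found there. Depth limits the Y541S giredestrant comparison, which rests on 921651 UMIs in Upk3a-positive cells.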
